A study of Rattus norvegicus with 30 samples.

Results

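Prss23, Serpine2, Cacna2d3, Gnat3, Dnajb3, Vnn1 and Afm are 7 rat genes with no listed part in fatty acid oxidation whose signal stood above the solvent controls in hepatocytes given clofibrate. The 7 were listed by name after their rise against DMSO had been seen, and each was measured by the probe sets whose only gene symbol in the platform's table is that name. They are 7 of the 10627 genes tested, and all 7 passed the filter on dim probe sets (a mean signal over the 30 arrays above 255, taken on the log2 scale). Each had exactly 1 such probe set, so there was no further probe set to compare. Because the rise against DMSO chose the genes, their differences from DMSO, and everything built from those differences, are given as values with no test.

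The study exposed cryopreserved primary hepatocytes of male Sprague Dawley rats to clofibrate, a fibrate that lowers blood lipids, to follow the response over dose and time. The cells were thawed, plated on collagen under Matrigel and dosed on the third day of culture. The 6 groups were DMSO at 1% (the vehicle in which the dosing solutions were made), 60 uM clofibrate and 1000 uM clofibrate, each harvested at 24 h and at 48 h. Each group held 5 separately treated wells, each on 1 Affymetrix rat expression array. The labels call the wells biological replicates and tie none of them to its own animal, which means that a p-value here reflects variation among wells. The values are MAS5 signals on a linear scale, which the authors had scaled to the same trimmed mean on each array (1500.6 to 1500.7).

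Clofibrate is known to act through PPAR-alpha, a nuclear receptor that pairs with RXR and binds direct repeats of a short half-site near its target genes, most of which in liver serve the breakdown of fatty acids. The 7 genes have other roles. Prss23 is a secreted protein of the serine protease family, and Serpine2 (protease nexin-1) inhibits thrombin, urokinase and plasmin. Cacna2d3 is an auxiliary subunit of voltage-gated calcium channels, and Gnat3 (gustducin) is the G protein alpha subunit that couples taste receptors in taste cells. Dnajb3 is a DnaJ co-chaperone, a family that stimulates Hsp70. Vnn1 is a membrane-anchored pantetheinase that splits pantetheine into pantothenate, the precursor of coenzyme A, and cysteamine, and it is known as a PPAR-alpha target in liver. Afm (afamin) is a plasma glycoprotein of the albumin family that hepatocytes secrete and that binds vitamin E.

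The stretches just upstream of the start sites are shown because the genes were all higher at the high dose while differing in function. RefSeq's promoter table (build GRCr8) held 4 of the 7 genes, all on the minus strand, and Prss23, Vnn1 and Afm were not matched. Each line holds the 250 bases before the start site, 5′ to 3′, with every CG pair in capitals. The windows are chr9:88637203-88637452 for Serpine2, chr16:4918900-4919149 for Cacna2d3, chr4:18104333-18104582 for Gnat3 and chr9:96244359-96244608 for Dnajb3.
Serpine2: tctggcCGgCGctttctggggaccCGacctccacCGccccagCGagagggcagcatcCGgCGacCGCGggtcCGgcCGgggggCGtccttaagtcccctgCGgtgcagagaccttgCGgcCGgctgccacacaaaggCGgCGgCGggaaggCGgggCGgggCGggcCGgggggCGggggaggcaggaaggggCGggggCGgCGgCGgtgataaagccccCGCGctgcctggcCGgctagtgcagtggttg
Cacna2d3: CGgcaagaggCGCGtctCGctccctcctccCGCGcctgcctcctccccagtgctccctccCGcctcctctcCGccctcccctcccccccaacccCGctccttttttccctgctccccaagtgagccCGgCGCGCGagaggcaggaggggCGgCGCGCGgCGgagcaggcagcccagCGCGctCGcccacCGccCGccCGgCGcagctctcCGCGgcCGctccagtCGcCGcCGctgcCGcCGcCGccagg
Gnat3: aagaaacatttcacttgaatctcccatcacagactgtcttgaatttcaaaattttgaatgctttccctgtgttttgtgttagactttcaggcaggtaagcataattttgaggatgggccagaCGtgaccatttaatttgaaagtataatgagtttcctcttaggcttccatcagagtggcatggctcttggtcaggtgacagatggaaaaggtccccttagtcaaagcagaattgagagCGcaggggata
Dnajb3: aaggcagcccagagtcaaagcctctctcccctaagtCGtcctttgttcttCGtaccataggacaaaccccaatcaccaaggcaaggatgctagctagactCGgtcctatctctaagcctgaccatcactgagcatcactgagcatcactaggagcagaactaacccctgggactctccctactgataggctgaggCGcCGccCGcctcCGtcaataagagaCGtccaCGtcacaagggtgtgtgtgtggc
Serpine2 and Cacna2d3 held 30 and 34 CG pairs and had 76.8% and 78.8% G and C, while Gnat3 held 2 CG pairs at 41.6% and Dnajb3 held 9 at 54.8%. The median of all 33469 promoters in the table was 5 CG pairs and 51.2% G and C. The receptor half-site AGGTCA, its repeat AGGTCANAGGTCA (which contains the half-site) and TATAAA were searched on both strands, and none had a match in any of the 4 stretches. Over windows of the same length, 14.1% of all promoters held AGGTCA, 0.0508% held AGGTCANAGGTCA and 12.9% held TATAAA. No match says only that these letters are not in these windows.

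Arrays of a group correlated at 0.964 to 0.979 over probe sets, and the lowest correlation between groups was 0.930. Replicate 1 of DMSO at 48 h stood apart, with a residual SD of 0.336 on the log2 scale against at most 0.297 on any other array, so differences that rest on it are also given without it. Hepatocyte markers were high in all 6 groups (6 of 7 on the array, all 6 above the floor set by bacterial control probe sets), with sums of 343797 to 359440 at 1000 uM and 354710 to 423294 in DMSO at 48 h, and of 332677 to 372927 and 383744 to 427692 for the same treatments at 24 h. At 1000 uM against DMSO, 2 of these 6 markers were lower at 48 h and 4 at 24 h (limma adjusted p under 0.05). None was higher, and of all genes tested 26.8% and 20.5% were called lower at these times. In bulk RNA, fewer cells of a type and less RNA per cell cannot be told apart.

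**Figure D1:**
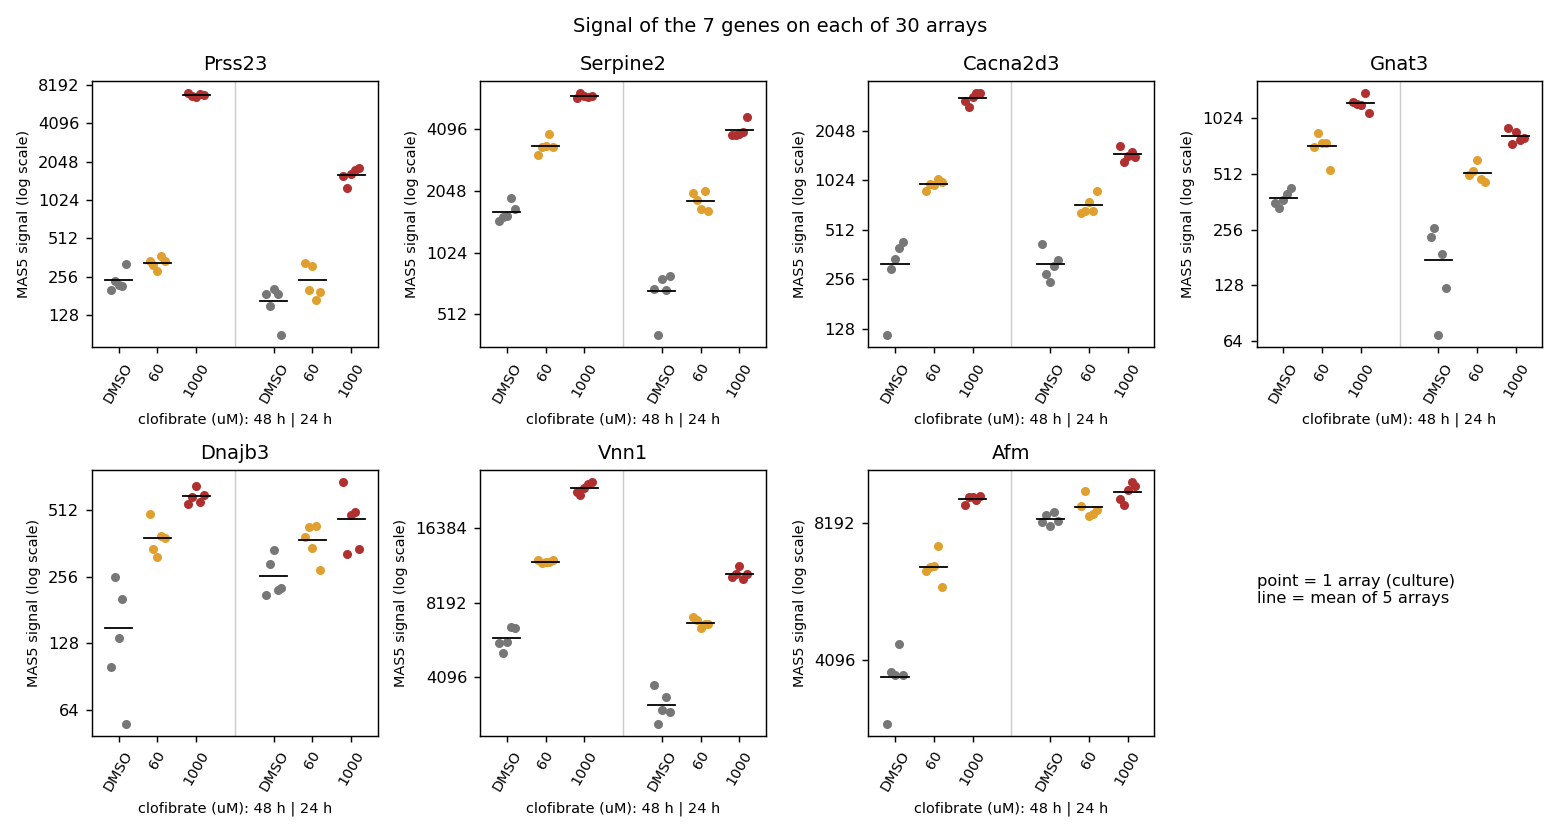
MAS5 signal (log scale) of each of the 7 genes on all 30 arrays, with 48 h left of 24 h and the dose of clofibrate running from DMSO to 1000 uM within each time. Points are single cultures and lines are means of 5, and Prss23 at 1000 uM and 48 h sits at 6554 to 7062, far above its other groups, while Afm at 24 h lies between 8066 and 10097 at every dose.

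The secreted protease Prss23 had the largest difference of the 7 at 1000 uM at both times and little at 60 uM. At 48 h, Prss23 signals were 203, 238, 222, 217 and 322 in DMSO, 342, 319.9, 282, 371 and 341 at 60 uM, and 7062, 6754, 6554, 7003 and 6793 at 1000 uM. At 24 h, Prss23 signals were 189, 150.4, 206, 187 and 89.1 in DMSO, 331, 202, 313, 168 and 197 at 60 uM, and 1596, 1274, 1640.3, 1761 and 1814 at 1000 uM. The 60 uM arrays overlapped DMSO at both times, whereas every 1000 uM array lay above every other array of its time. The log2 difference from DMSO at 1000 uM was 4.85 ± 0.19 at 48 h (28.8-fold) and 3.35 ± 0.19 at 24 h (10.2-fold), where ± is limma's standard error and n = 5 per group here and in the genes that follow. At 60 uM it was 0.48 ± 0.19 at 48 h and 0.56 ± 0.19 at 24 h. The group means in DMSO at both times and at 60 uM and 24 h lay under the filter's cut (a signal of 255), so Prss23 passed the filter through its higher groups and the folds rest on dim controls. Without replicate 5 of DMSO at 24 h, the lowest array, the 60 uM difference at 24 h was 0.36. From low to high by mean signal the order was DMSO 24 h, DMSO 48 h, 60 uM 24 h, 60 uM 48 h, 1000 uM 24 h and 1000 uM 48 h, and the first 4 overlapped their neighbours. On the log2 scale the mean of DMSO 48 h (7.89) lay just above that of 60 uM 24 h (7.87).

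The protease inhibitor Serpine2 showed a graded difference at both doses. At 48 h, Serpine2 signals were 1464, 1527, 1552, 1894 and 1676 in DMSO, 3063, 3345, 3399.7, 3894 and 3379 at 60 uM, and 5822, 6158, 5982, 5915 and 5976 at 1000 uM. At 24 h, Serpine2 signals were 682, 405, 760.4, 673 and 793 in DMSO, 1994, 1851, 1671, 2046 and 1644 at 60 uM, and 3859.6, 3834, 3892, 3983 and 4699.8 at 1000 uM. No dose group overlapped another at the same time. The log2 difference from DMSO was 1.08 ± 0.11 at 60 uM and 1.89 ± 0.11 at 1000 uM at 48 h, and 1.51 ± 0.11 at 60 uM and 2.65 ± 0.11 at 1000 uM at 24 h. Leaving out 1 culture gave differences at 24 h as low as 1.34 at 60 uM and 2.48 at 1000 uM. The smaller difference at 48 h stood beside a DMSO level that was itself higher at 48 h (1623 ± 170.3 against 663 ± 153, SD, n = 5 each). In the order of the 6 groups, DMSO 48 h overlapped 60 uM 24 h, and 60 uM 48 h overlapped 1000 uM 24 h.

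The calcium channel subunit Cacna2d3 had a DMSO mean of 316 at both times and a wider dose range at 48 h than at 24 h. At 48 h, Cacna2d3 signals were 116, 295, 339, 398 and 433 in DMSO, 875, 967, 954, 1046 and 997 at 60 uM, and 3116, 2863, 3258, 3455 and 3438 at 1000 uM. At 24 h, Cacna2d3 signals were 416, 274, 245, 308 and 335 in DMSO, 646, 661, 748, 664 and 873 at 60 uM, and 1637, 1326, 1437, 1526 and 1413 at 1000 uM. The doses did not overlap at either time, and every 48 h array lay above every 24 h array at both doses of clofibrate. The log2 difference from DMSO at 48 h was 1.74 ± 0.21 at 60 uM and 3.48 ± 0.21 at 1000 uM (11.1-fold), and at 24 h it was 1.20 ± 0.21 and 2.24 ± 0.21 for the same doses. The low DMSO value of 116 belongs to replicate 1, the array that stood apart, and without it the 48 h differences were 1.41 at 60 uM and 3.15 at 1000 uM.

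The taste G protein subunit Gnat3 was dim in controls and stepped up at each dose. At 48 h, Gnat3 signals were 358, 336, 369, 401 and 432 in DMSO, 714, 852, 754, 753 and 540.0 at 60 uM, and 1261, 1219, 1213, 1404 and 1095 at 1000 uM. At 24 h, Gnat3 signals were 235, 259.7, 68.5, 189.9 and 123 in DMSO, 506, 533, 612, 479 and 466 at 60 uM, and 905, 742, 864, 788 and 804 at 1000 uM. The doses did not overlap at either time. Against DMSO, the log2 difference at 48 h was 0.92 ± 0.22 at 60 uM and 1.71 ± 0.22 at 1000 uM, and at 24 h it was 1.71 ± 0.22 and 2.38 ± 0.22. The DMSO mean at 24 h lay under the filter's cut, and its 5 arrays had a coefficient of variation of 45.1%, against 9.87% in DMSO at 48 h. Among the 6 groups in order, 60 uM 24 h overlapped 60 uM 48 h, and 60 uM 48 h overlapped 1000 uM 24 h.

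The co-chaperone Dnajb3 had a wide scatter between cultures relative to its own mean. At 48 h, Dnajb3 signals were 99.7, 255, 135, 203 and 55.2 in DMSO, 491, 340.1, 314, 389.9 and 384 at 60 uM, and 547, 585, 659.9, 557 and 599 at 1000 uM. At 24 h, Dnajb3 signals were 211, 292, 338, 224 and 228 in DMSO, 388, 427, 343, 431 and 274 at 60 uM, and 686, 323, 486, 501 and 339.8 at 1000 uM. The doses were apart at 48 h and overlapped at 24 h. Set against DMSO, the log2 difference at 48 h was 1.53 ± 0.28 at 60 uM and 2.17 ± 0.28 at 1000 uM, and at 24 h it was 0.53 ± 0.28 and 0.82 ± 0.28. Both DMSO means lay under the filter's cut on the log2 scale, and the coefficient of variation in DMSO at 48 h was 53.5%. Leaving out 1 culture gave differences at 48 h as low as 1.22 at 60 uM and 1.85 at 1000 uM. In order from DMSO 48 h, DMSO 24 h, 60 uM 24 h, 60 uM 48 h and 1000 uM 24 h to 1000 uM 48 h, each group overlapped the next.

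The pantetheinase Vnn1 had close replicates and a higher level at each dose, with nearly even steps only at 48 h. At 48 h, Vnn1 signals were 5626, 5117, 5675, 6519 and 6453 in DMSO, 12127, 11796, 12002, 11907 and 12154 at 60 uM, and 23008, 22315, 23790.5, 24671 and 25258 at 1000 uM. At 24 h, Vnn1 signals were 3779, 2638, 3001, 3379.7 and 2958 in DMSO, 7138, 6977, 6432, 6677 and 6718 at 60 uM, and 10349, 10662, 11519.7, 10175 and 10652 at 1000 uM. No dose group overlapped another at the same time. The log2 difference from DMSO at 48 h was 1.04 ± 0.07 at 60 uM and 2.02 ± 0.07 at 1000 uM (4.06-fold), and at 24 h it was 1.12 ± 0.07 and 1.77 ± 0.07. The 60 uM cultures at 48 h, all at or above 11796, lay above all 1000 uM cultures at 24 h, the highest of which was 11519.7.

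The vitamin E carrier Afm went against the description of the set as strongly induced, since at 24 h it was close to DMSO at both doses. At 48 h, Afm signals were 2971, 3856, 3801, 4442 and 3804 in DMSO, 6442, 6551, 6592, 7286 and 5928 at 60 uM, and 8984, 9344, 9336, 9225 and 9408 at 1000 uM. At 24 h, Afm signals were 8246, 8538, 8066, 8690.2 and 8272 in DMSO, 8942, 9630.3, 8481, 8575 and 8759 at 60 uM, and 9278, 8997, 9705, 10097 and 9911 at 1000 uM. The doses were apart at 48 h, whereas at 24 h the 60 uM arrays overlapped DMSO and the 1000 uM arrays lay just above it. The log2 difference from DMSO at 48 h was 0.81 ± 0.07 at 60 uM and 1.31 ± 0.07 at 1000 uM (2.47-fold), and at 24 h it was 0.09 ± 0.07 and 0.20 ± 0.07. Without replicate 2 of 60 uM at 24 h, the highest array of its group, the first of these 24 h values was 0.056. Scaling the arrays to the spiked-in control transcripts moved the 24 h differences to 0.21 and 0.43. The 1000 uM level was 9259 ± 167 at 48 h against 9597 ± 453 at 24 h, while the DMSO level was 3775 ± 524 at 48 h against 8362 ± 249 at 24 h (SD, n = 5 each), so the difference at 48 h stood beside a lower control and not beside a higher treated level.

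**Figure D2:**
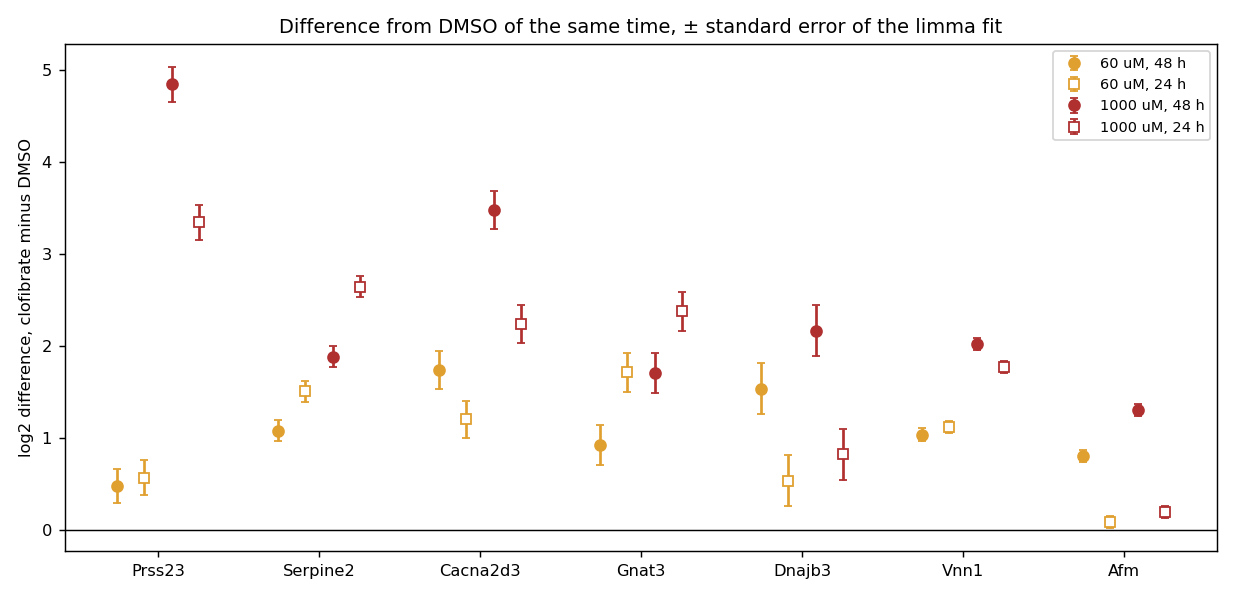
Log2 difference of clofibrate from DMSO of the same time for the 7 genes, at 60 uM and 1000 uM, with circles for 48 h and open squares for 24 h. Bars are standard errors of the limma fit, and Prss23 spans 0.48 to 4.85 while Afm at 24 h lies at 0.09 and 0.20.

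Counted over the set, all 5 treated arrays lay above all 5 DMSO arrays in 6 of 7 genes at 60 uM and 48 h (background 4.75% of genes tested), in 7 of 7 at 1000 uM and 48 h (12.8%), in 4 of 7 at 60 uM and 24 h (4.20%) and in 6 of 7 at 1000 uM and 24 h (10.4%). The genes were chosen on these contrasts, so nothing is read from the counts. The exceptions were Prss23 at 60 uM at both times, Dnajb3 at both doses at 24 h, and Afm at 60 uM and 24 h. The median difference of the 7 was 1.04 and 2.02 at 60 uM and 1000 uM at 48 h, and 1.12 and 2.24 at 24 h. Over all genes tested the medians lay between -0.06 and -0.01. Both doses of a time share their DMSO arrays. Without replicate 1 of DMSO at 48 h, the 1000 uM difference at 48 h was 4.79 for Prss23, 1.85 for Serpine2, 1.69 for Gnat3, 2.07 for Dnajb3, 2.01 for Vnn1 and 1.22 for Afm, and at 60 uM the same 6 genes had 0.42, 1.04, 0.90, 1.44, 1.02 and 0.72.

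Along dose, Prss23 differed in shape from the other 6. The share of the 1000 uM log2 difference already present at 60 uM was 9.80% ± 3.73 at 48 h and 16.9% ± 5.25 at 24 h for Prss23 (SE). For the other 6 it was between 50.1% (Cacna2d3) and 70.8% (Dnajb3) at 48 h. At 24 h it was 56.9% for Serpine2, 53.7% for Cacna2d3, 72.1% for Gnat3 and 63.1% for Vnn1, whereas the values for Dnajb3 (64.8% ± 29.5) and Afm (43.1% ± 28.5) were too imprecise to place. The step between the doses, as the 1000 uM minus 60 uM log2 difference, was 4.37 ± 0.19 for Prss23 at 48 h and 0.50 to 1.74 for the other 6.

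Along time, the 7 genes showed differing patterns. The 1000 uM difference from DMSO was larger at 48 h than at 24 h by 1.50 ± 0.27 for Prss23, 1.34 ± 0.39 for Dnajb3, 1.24 ± 0.29 for Cacna2d3, 1.11 ± 0.09 for Afm and 0.25 ± 0.10 for Vnn1 (log2 difference at 48 h minus that at 24 h). It was smaller at 48 h for Serpine2 (-0.76 ± 0.16) and Gnat3 (-0.67 ± 0.30). Without replicate 3 of DMSO at 24 h, the dimmest Gnat3 array at 68.5, the Gnat3 value was -0.37. For Serpine2, leaving out 1 culture gave -0.84 to -0.59. In the treated cultures themselves, 48 h minus 24 h at 1000 uM was 2.09 ± 0.19 for Prss23, 1.16 ± 0.07 for Vnn1, 1.14 ± 0.21 for Cacna2d3, 0.59 ± 0.22 for Gnat3 and 0.56 ± 0.11 for Serpine2, with no overlap between the times. For Dnajb3 (0.39 ± 0.28) and Afm (-0.05 ± 0.07) the times overlapped at that dose. Only at 1000 uM was the treated Prss23 level at 48 h clear of the 24 h level, since at 60 uM its difference was 0.50 ± 0.19 and the arrays overlapped. Without replicate 1 of DMSO at 48 h the 1000 uM difference at 48 h minus that at 24 h was 0.91 for Cacna2d3, 1.25 for Dnajb3, 1.02 for Afm and 1.44 for Prss23. For Dnajb3, leaving out 1 culture gave values as low as 1.03.

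**Figure D3:**
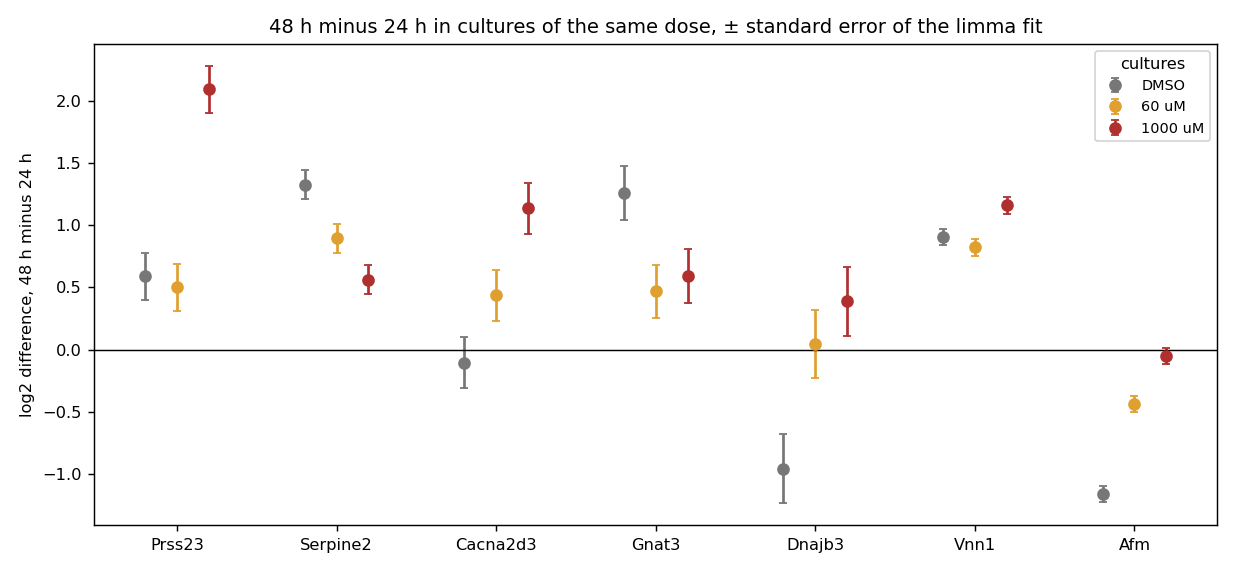
Log2 difference of 48 h minus 24 h in cultures of the same dose for each gene, in DMSO, at 60 uM and at 1000 uM. Bars are standard errors of the limma fit, and Afm lies at -1.16, -0.44 and -0.05 in DMSO, 60 uM and 1000 uM cultures while Serpine2 lies at 1.32, 0.89 and 0.56.

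The comparison of 48 h with 24 h in DMSO alone asks how the genes moved in culture with 1% DMSO and no clofibrate. It is the only one in which members were tested, with the limit that the DMSO arrays also entered the contrasts that chose them. The test is given for Serpine2, Vnn1, Afm and Cacna2d3, whose DMSO means at both times lay above the filter's cut. By limma with Benjamini-Hochberg adjustment over 18625 probe sets, Serpine2 rose by 1.32 ± 0.11 (adjusted p = 4.32e-10) and Vnn1 by 0.90 ± 0.07 (adjusted p = 1.49e-11), each with all 5 arrays at 48 h above all 5 at 24 h. Afm fell by 1.16 ± 0.07 (adjusted p = 1.33e-14), with all 5 arrays at 48 h below all 5 at 24 h. Cacna2d3 did not pass (-0.10 ± 0.21, adjusted p = 0.858). Of all genes tested, 5.10% were called higher and 3.75% lower, 4.10% had all arrays at 48 h above those at 24 h, and 3.11% had all below. Gnat3, Dnajb3 and Prss23 had 1 or both DMSO means under the cut and passed the filter through higher groups, so their values carry no test. The log2 difference of 48 h minus 24 h in DMSO was 1.26 ± 0.22 for Gnat3, -0.96 ± 0.28 for Dnajb3 and 0.59 ± 0.19 for Prss23, the last of which was 0.38 without replicate 5 of DMSO at 24 h. The Dnajb3 value was -0.64 without replicate 5 of DMSO at 48 h, its dimmest array.

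The calls of Serpine2, Vnn1 and Afm passed in all 18 alternatives run. Without replicate 1 of DMSO at 48 h the differences were 1.36 for Serpine2, 1.28 for Gnat3, 0.92 for Vnn1, -1.08 for Afm, -0.86 for Dnajb3, 0.64 for Prss23 and 0.22 for Cacna2d3, the last with its sign turned.

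By Pearson correlation of log2 signal, given over the 30 arrays as a description since all genes share the arrays and the same 6 groups, the 3 genes most like each were taken from 10513 genes. Prss23 was most like Pex19, a peroxisome membrane import factor (0.972), Dgat1, an enzyme of triglyceride synthesis (0.968), and Aqp7, a glycerol channel (0.963). Cacna2d3 was most like Tmem14c (0.973), the fatty acid binding protein Fabp1 (0.971) and the peroxisomal reductase Decr2 (0.970). Vnn1 was most like the fatty acid transport protein Slc27a2 (0.989), the retinal dehydrogenase Aldh1a1 (0.987) and Cyp2j4 (0.983). Serpine2 shared that company, with Aldh1a1 (0.968), Vnn1 (0.963) and Slc27a2 (0.962), and so did Gnat3, with Slc27a2 (0.923), Acad11 (0.918) and Vnn1 (0.917). Dnajb3 was most like the organic anion transporter Slc22a7 (0.869), the asialoglycoprotein receptor subunit Asgr1 (0.847) and Fer1l5 (0.843), and Afm was most like Cyp3a2 (0.947), angiotensinogen Agt (0.855) and Fer1l5 (0.846). Within the set, the correlation ran from 0.249 (Serpine2 and Afm) to 0.963 (Serpine2 and Vnn1), and Dnajb3 had 0.757 with Afm and 0.750 with Cacna2d3.

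Genes lying next to the 7 on the chromosome, by the order of the GRCr8 gene table, were compared where the array named them singly. Gnat3 lies between Cd36, the fatty acid translocase, and Gnai1, another G protein alpha subunit. Cd36 rose at every dose and time, by 2.12 ± 0.15 at 1000 uM and 0.90 ± 0.15 at 60 uM at 48 h and by 1.97 ± 0.15 and 1.00 ± 0.15 at 24 h, and in DMSO it rose by 1.19 ± 0.15 between the times (limma adjusted p at most 7.73e-05). Gnai1 fell by 0.87 ± 0.11 at 1000 uM and 48 h (adjusted p = 7.0e-08) and by 0.60 ± 0.11 at 1000 uM and 24 h (adjusted p = 5.66e-05), the second of which was not called with spike-in scaling (adjusted p = 0.0559).

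Both neighbours of Prss23 also rose at 1000 uM. Fzd4, a Wnt receptor, rose by 1.40 ± 0.16 at 48 h and 0.80 ± 0.16 at 24 h, and Me3, a mitochondrial malic enzyme, rose by 1.13 ± 0.12 and 0.96 ± 0.12 (limma adjusted p at most 0.000178). At 60 uM, Me3 rose by 0.44 ± 0.12 at 24 h (adjusted p = 0.0170), and the other 3 values, between -0.075 and 0.29, did not pass. Beside Afm, the albumin family gene Albfm1 rose by 1.02 ± 0.20 at 1000 uM and 48 h (adjusted p = 8.6e-05) and had 0.13 ± 0.20 at 24 h (adjusted p = 0.704), while Afp rose by 0.22 ± 0.08 at 48 h (adjusted p = 0.0199). Mrpl44 beside Serpine2 rose by 0.415 ± 0.055 at 48 h and 0.19 ± 0.055 at 24 h at 1000 uM, and Selenok beside Cacna2d3 fell by 0.33 ± 0.04 at both times, a fall that was not called with spike-in scaling (adjusted p = 0.0696 at 48 h and 0.350 at 24 h). Usp40 beside Dnajb3 and Taar1 beside Vnn1 did not pass in any of the 4 comparisons with DMSO. At 1000 uM, Usp40 was called higher at 48 h with quantile normalization (0.146, adjusted p = 0.0306) and at 24 h with spike-in scaling (0.329, adjusted p = 0.0129). Dnajb3 lies inside the spans of Ugt1a genes, on the opposite strand where the promoter table gives one. Probe sequences were not used here, so whether its probe set reads Dnajb3 alone was not tested.

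**Figure D4:**
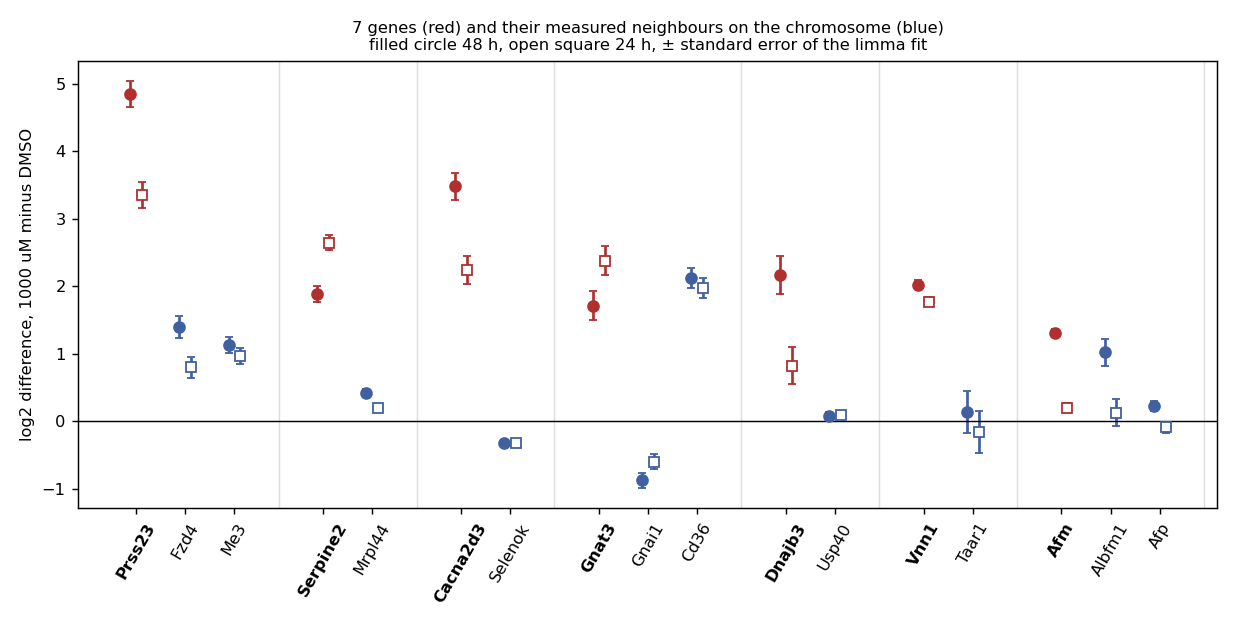
Log2 difference of 1000 uM clofibrate from DMSO for the 7 genes (red, bold names) and their measured neighbours on the chromosome (blue), with circles for 48 h and open squares for 24 h. Bars are standard errors of the limma fit, and Cd36 beside Gnat3 lies at 2.12 and 1.97 while Gnai1 on its other side lies at -0.87 and -0.60.

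Relatives of the 7 genes by family or pathway were counted at 1000 uM against DMSO by the same limma test. At 48 h, 17.1% of all genes were called higher and 26.8% lower, and at 24 h, 13.4% higher and 20.5% lower. With spike-in scaling these shares were 22.0% and 11.9% at 48 h, and 26.9% and 5.62% at 24 h. In the pathway around Vnn1 most genes rose. Of 16 measured genes of pantetheine, coenzyme A and cysteamine metabolism, 12 rose at 48 h and 9 rose and 1 fell at 24 h, with median differences of 0.43 and 0.25. At 48 h, Slc25a42, the mitochondrial coenzyme A carrier, rose by 2.04 ± 0.08, Pank1, the first kinase of coenzyme A synthesis, by 1.79 ± 0.05, Nudt7, a peroxisomal coenzyme A hydrolase, by 1.78 ± 0.05 and Csad, of taurine synthesis, by 1.20 ± 0.06 (adjusted p at most 4.49e-17).

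In the families of the protease and its inhibitor more genes fell than rose, except under spike-in scaling at 48 h, where the counts were equal. As deposited, the same balance held over all genes, with 17.1% higher and 26.8% lower at 48 h and 13.4% and 20.5% at 24 h. With spike-in scaling more of all genes rose than fell (22.0% and 11.9% at 48 h, 26.9% and 5.62% at 24 h). Whether these families differed from all genes was not tested. Of 17 genes of serine proteases and the plasminogen system, 6 rose and 8 fell at 48 h, and 1 rose and 8 fell at 24 h (6 and 6, and 3 and 4, with spike-in scaling). Plasma kallikrein Klkb1 fell by 2.48 ± 0.14 at 48 h and the complement proteases C1r and C1s by 1.63 ± 0.07 and 1.60 ± 0.06, whereas complement factor D (Cfd) rose by 1.15 ± 0.13. Of 17 other serpins, 3 rose and 7 fell at 48 h, and 1 rose and 8 fell at 24 h (5 and 5, and 2 and 5, with spike-in scaling). Serpina7, the thyroxine carrier, rose by 1.86 ± 0.12 at 48 h, and heparin cofactor Serpind1 fell by 1.34 ± 0.11. In DMSO between 24 and 48 h, where Serpine2 rose, 9 of the 17 other serpins fell and 8 did not pass, against 3.75% of all genes called lower. Under spike-in scaling 3 serpins fell and 1 rose, against 0.725% of all genes lower and 10.9% higher.

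Relatives of the other genes were counted in the same way. Among 11 other calcium channel subunits past the filter, 1 fell at 48 h (Cacna1i, -0.57 ± 0.23, adjusted p = 0.0492, lost under 2 of 3 other scalings) and none rose by limma, with 1 higher and 1 lower at an unadjusted p under 0.05. Cacng4 (0.38 ± 0.16, adjusted p = 0.0593) passed under the other 3 scalings. Of 23 G protein and taste signalling genes, 2 rose and 7 fell at 48 h, and 1 rose and 4 fell at 24 h. Under spike-in scaling 3 rose and 5 fell at 48 h, and 5 rose at 24 h with none falling by limma. Unadjusted counts were not made under that scaling. As deposited, the 4 that fell at 24 h were also all that fell at an unadjusted p under 0.05. Gna12 rose by 0.49 ± 0.07 and Gnat1, the rod transducin subunit, by 0.96 ± 0.30 (adjusted p = 0.0109) at 48 h. Of those that fell at 48 h, the inhibitory subunits Gnai1 and Gnai2 fell by 0.87 ± 0.11 (adjusted p = 7.0e-08) and 0.78 ± 0.11 (adjusted p = 1.12e-06). Of 36 other DnaJ genes, 7 rose and 12 fell at 48 h and 7 rose and 7 fell at 24 h, whereas under spike-in scaling 10 rose and 4 fell at 48 h and 14 rose and 1 fell at 24 h. Dnajb4 fell by 1.08 ± 0.10 at 48 h. Of 9 genes of the albumin family and vitamin E transport, 5 rose and 1 fell at 48 h, among them Mttp, which loads lipoproteins with lipid (1.31 ± 0.05), and Scarb1, a lipoprotein receptor (0.99 ± 0.12). At 24 h, 2 of these 9 rose and 3 fell. Under spike-in scaling 5 rose at 48 h with none falling by limma, and 3 rose and 1 fell at 24 h. As deposited, the 1 that fell at 48 h was also the only 1 to fall at an unadjusted p under 0.05.

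As a yardstick, all 10 measured genes of a PPAR-alpha list rose in all 4 comparisons with DMSO, with medians of 1.27 at 60 uM and 2.99 at 1000 uM at 48 h and of 1.16 and 2.61 at 24 h. Under median centring and under spike-in scaling, 9 of the 10 were called higher at 60 uM and 48 h. At 60 uM, 5.70% of all genes were called higher at 48 h and 4.55% at 24 h. Ehhadh, the peroxisomal bifunctional enzyme, rose by 5.06 ± 0.08 at 1000 uM and 48 h, beside the 4.85 of Prss23, and Fabp1 rose by 3.43 ± 0.06, beside the 3.48 of Cacna2d3. At the same dose and time Acot1 rose by 8.48 ± 0.47 and Cyp4a1 by 2.81 ± 0.09. Summed signals of stellate cell and fibroblast markers were 3842 to 4601 at 1000 uM and 3702 to 4773 in DMSO at 48 h, and those of Kupffer cell markers were 21226 to 22538 and 23342 to 27074. Of the 10 stellate markers Lrat and Lum lay under the floor in both groups, and of the 9 Kupffer markers Adgre1 did. Bile duct markers summed to 10072 to 10670 at 1000 uM and 12749 to 15215 in DMSO at 48 h, with Krt7 under the floor in both and Krt19 at 1000 uM. Only 1 of the 5 bile duct markers on the array passed the filter. Endothelial markers summed to 1907 to 2076 at 1000 uM and 1365 to 2123 in DMSO at 48 h, with Vwf under the floor at 1000 uM. At 24 h the sums at 1000 uM and in DMSO were 3502 to 4323 and 3672 to 4864 for stellate markers, 23663 to 25818 and 27295 to 28914 for Kupffer markers, and 7229 to 8205 and 10037 to 11564 for bile duct markers. The part of other cell types in the differences of the 7 genes was not tested.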

How the data were processed

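Total RNA of 30 hepatocyte cultures was hybridised to 1 array each. The intensity (signal) of each probe set was deposited by the authors, who made it with MAS5, per the submitters' processing notes, with no version given in the sources used here. MAS5 scaling gives every array the same trimmed mean and hides changes in total RNA per cell. Signals were put on a log2 scale. Of 31042 non-control probe sets, the 18625 whose mean over the arrays exceeded the 40th percentile entered 1 limma fit (R 4.3.3, limma 3.58.1) with a mean per group over all 6 groups, an intensity trend and Benjamini-Hochberg adjustment, and an adjusted p under 0.05 was called. The number of arrays limits the precision. Replicate numbers follow the order of the samples and only name arrays. Gene names come from the platform's table (20826 with 1 symbol, 436 with several, 9780 with none), each gene by its brightest probe set. The floor was the highest of 3 TrpnX control sets in each group (log2 4.48 to 6.31). The genes and lists were chosen with earlier results of these data known. Named were the 7 genes, up to 4 genes per list with the largest changes (called ones first), the 3 genes most like each of the 7, and chromosome neighbours. Alternatives covered filter, scaling, an added constant of 50, the trend, the arrays fitted and each culture left out. The fit was tested on simulated data. No genome position of a probe set is given.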

Additional observations from a re-analysis of the deposited data

Results flagged for a closer look

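Of 42 groups of 5 arrays (7 genes in 6 groups), 2 held an array far from the other 4 of its group, where chance gives about 1 in 20. Both were Serpine2 at 24 h. Replicate 5 at 1000 uM had a signal of 4699.8, above the 3834 to 3983 of the other 4 cultures, and replicate 2 in DMSO had a signal of 405, below the 673 to 793 of the other 4.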

How the results depend on the processing

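All 492 alternative values of the 28 differences of the 7 genes from DMSO were above 0. The genes were chosen by this rise, so nothing is read from the sign. Settings of filter, trend and arrays fitted cannot change a difference, so those values repeat the main ones. Of 1247 alternative values of these genes in all comparisons, such repeats included, 1220 kept their direction and side of the threshold or stayed within the spread between replicates. The sign turned for Cacna2d3 between 48 h and 24 h in DMSO, to 0.0636 with spike-in scaling, and leaving out 1 culture gave -0.25 to 0.22. It also turned for Prss23 in the 60 uM difference from DMSO at 48 h minus that at 24 h. That value was -0.089, and leaving out 1 culture gave -0.21 to 0.12, counted above as within the spread between replicates. The filter at the 60th percentile left out Prss23, Gnat3 and Dnajb3. Spike-in scaling called 677 probe sets at 60 uM and 48 h, 759 at 60 uM and 24 h, and between the doses 2973 at 48 h and 1981 at 24 h, against 1686, 1222, 4719 and 3332 as deposited. Fitting the DMSO arrays alone called 758 between the times, against 1293. The share of calls that were higher at 1000 uM was 66.5% with spike-in scaling, 41.8% with median centring and 40.2% as deposited at 48 h, and 83.0%, 54.2% and 39.8% at 24 h. At 60 uM it was 70.8%, 43.4% and 51.0% at 48 h and 91.2%, 74.9% and 52.2% at 24 h, and between the times in DMSO 93.8%, 69.9% and 55.8%. With spike-in scaling, the median log2 difference over probe sets became 0.18 at 1000 uM and 24 h, 0.11 at 48 h and 0.16 between the times in DMSO, and the cause was not tested. No paired analysis was made, because the labels give no replicate numbers shared between groups.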
